A study of Arabidopsis thaliana with 9 samples.

Results

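The comparison described here is between the 3 arrays labelled NAA+BA and the 3 labelled mock, which are 6 of the 9 arrays of the series. The arrays were taken by their deposited labels, and all 22810 probe sets of the Affymetrix ATH1 array entered the test. RNA came from node 1 cauline buds of Col-0 wild-type Arabidopsis plants, 3 to 4 weeks old, and the buds were kept on isolated nodal segments for 18 h. Labelled NAA+BA are segments given 1 µM of the synthetic auxin NAA at the apical end and 1 µM of the CK (cytokinin) BA at the basal end, labelled NAA are segments given the apical NAA alone, and labelled mock are segments given the ethanol solvent apically. All 3 groups are of 1 genotype on the same kind of excised segment, so neither the mock nor the treated segments had the shoot apex or the root system. Each value is the log2 level of a probe set, and a difference of 1 on this scale is a 2-fold difference.

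Auxin moving down the stem holds buds back, whereas CK supplied from below can let them grow out. CK is sensed through a phosphorelay in which type-A response regulators (ARRs) are induced early and dampen the response, and abscisic acid (ABA) is the hormone of water deficit that induces protective LEA (late embryogenesis abundant) and cold-regulated proteins. A bud that grows out also needs the machinery of growth, such as DNA replication and ribosome assembly in the nucleolus.

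Which treatment the arrays labelled mock received is not settled, and every direction below depends on it. The study's Data S1, a list of 220 probe sets, gives a difference for auxin plus CK against auxin alone, and for all 220 of them it matches the labelled difference NAA+BA minus mock to within 0.001. It matches the labelled difference NAA+BA minus NAA for 0 of the 220. In Data S1 the arrays labelled mock are therefore the buds given auxin alone, and the arrays labelled NAA are the ethanol control. On the deposited values, limma called 1241 probe sets for labelled NAA+BA against mock and 2 for labelled NAA+BA against NAA. The deposited labels are kept throughout. Read as in Data S1, the values below compare auxin plus CK with auxin alone.

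Buds on the arrays labelled NAA+BA had higher levels than those labelled mock of 10 of the 11 measured genes of a CK signalling list, and lower levels of 4 of the 7 measured genes of an ABA and dehydration list. Of the 11 CK genes, 8 are in Data S1, which holds only probe sets raised in this contrast. Of the 3 outside it, 2 were higher. In limma, with p-values adjusted by Benjamini and Hochberg's method across the whole array, 499 probe sets were called higher (2.19% of those tested) and 742 lower (3.25%) where a call needs an adjusted p below 0.05 and at least a 2-fold difference. The decreases were larger. A 4-fold difference or more was seen for 105 of the lower probe sets and for 20 of the higher ones. The groups did not overlap for 479 of the probe sets called higher and 729 of those called lower. As nearly all called probe sets had groups apart, a lack of overlap adds little to a call in what follows. The share of all probe sets with groups apart is not given here. A gene name could be given to 384 of the former and 389 of the latter, and 98 of the 384 are named only through Data S1, whose entries were all selected as raised in this same contrast.

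The 3 mock arrays were less alike than the NAA+BA arrays. Over the 1241 called probe sets, mock replicate 3 was the mock array nearest to the NAA+BA mean for 1051 (84.7%), mock replicate 2 for 129 and mock replicate 1 for 61. The lowest correlation between arrays of a group was 0.975 among the mock arrays and 0.992 among the NAA+BA arrays. Without mock replicate 3 the test called 979 probe sets higher and 1188 lower, and without mock replicate 1 it called 227 and 514. Without mock replicate 2 and without NAA+BA replicate 3, 313 and 311 were called higher. In each group replicate 3 lay furthest from its group mean, with a median absolute deviation of 0.196 (mock), 0.155 (NAA) and 0.103 (NAA+BA). Whether the bud material of mock replicate 3, or of all arrays numbered 3, has a part in the results was not tested. The reference gene UBC21 was level, at 10.24, 10.23 and 9.99 on the mock arrays and 10.18, 10.14 and 10.14 on the NAA+BA arrays.

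Of the called probe sets, 115 of the higher and 353 of the lower have no gene name, and the largest changes were ranked over the named ones whose groups did not overlap. The 10 largest increases among these were led by CK response genes. ARR15 rose by 4.34 on the log2 scale, ARR7 by 3.60 and CKX5, a CK oxidase gene, by 3.49, and the others were ARR6, FAF2, PRODH1, FAF1, ARR5, FAF3 and ABCB21, between 2.56 and 3.35. All 10 are in Data S1. Of 11 measured genes of the CK list, 10 rose and 1, the CK glucosyltransferase UGT76C1 (-0.44), did not pass. Of the 11, 7 are named only through Data S1, and of the 3 outside it 2 rose. The type-A gene ARR16 rose from 6.98, 6.69 and 6.07 to 8.23, 8.16 and 7.68 on the 3 arrays of each group (1.44), and UGT76C2, another CK glucosyltransferase, from 6.58, 6.59 and 6.38 to 7.98, 7.53 and 7.66 (1.21). The groups were apart for both. The 10 largest decreases among the named probe sets were led by HIS1-3, a drought-inducible linker histone gene. The other 9 are known here only by locus, from AT1G49500 (-3.33) and AT3G02480 (-3.32) to AT1G26800 (-2.60). On the arrays in turn, AT1G49500 stood at 10.50, 9.72 and 9.29 under mock and 6.97, 6.21 and 6.35 under NAA+BA, and AT3G02480 at 8.44, 8.33 and 6.21 under mock and 4.82, 4.26 and 3.92 under NAA+BA.

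Stress genes were followed through 12 lists that hold 265 genes, of which 40 have a named probe set and 225 could not be followed. Of the 40, limma called 12 higher and 5 lower, and 23 did not pass. All 12 higher genes are in Data S1, 6 of them named only by it, so their direction is no independent evidence. The 5 lower genes are outside it, as they must be, since it holds only raised probe sets. The median difference over the 40 was 0.04, against 0.02 over all probe sets. Over the 28 outside Data S1 it was -0.2, and 0 of these 28 were called higher. Leaving Data S1 out removes only raised genes, so neither median is free of that selection. A further 37 genes whose RefSeq names contain a word for stress, added after the values were seen, gave 7 more calls, all lower.

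**Figure D1:**
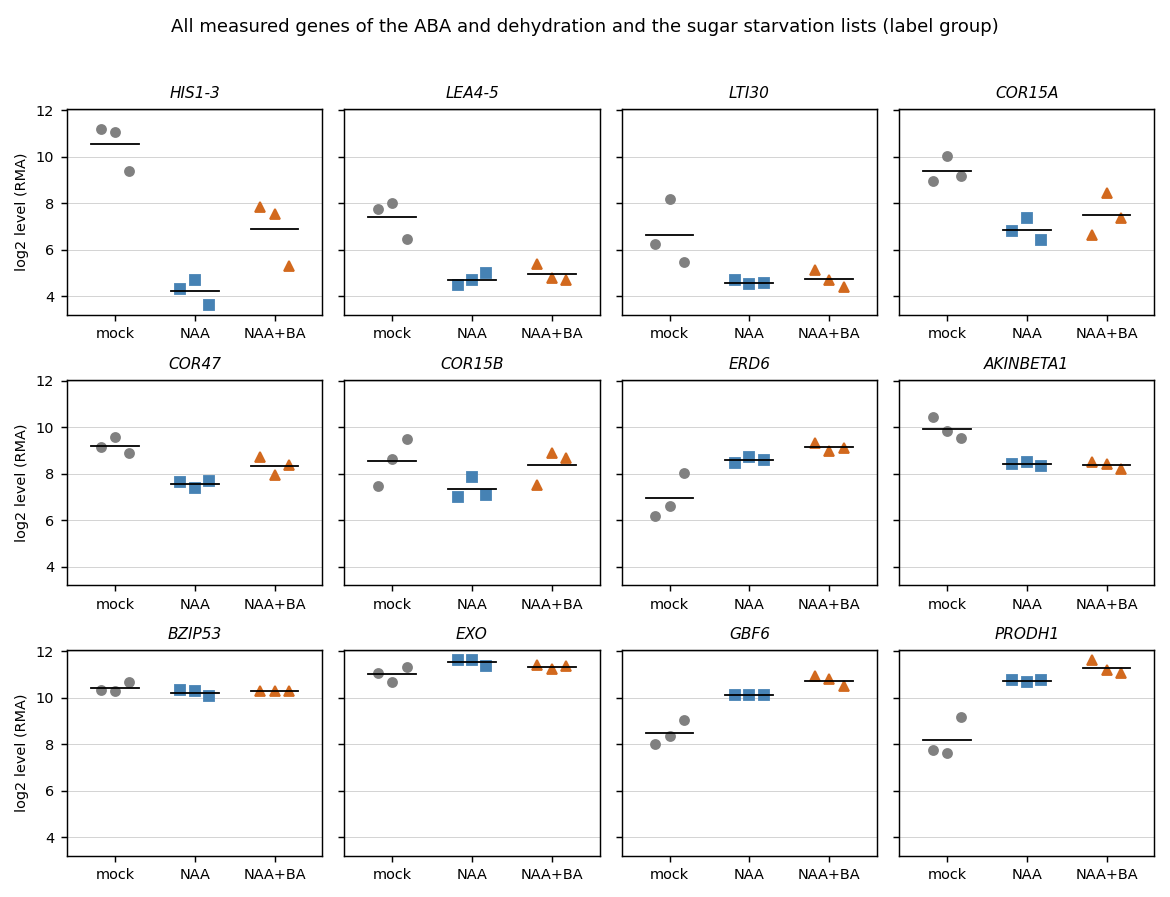
Log2 level of the 7 measured genes of the ABA and dehydration list, then the 5 of the sugar starvation list, on each of the 9 arrays. Each point is 1 array, in the order of its replicate number, and each line is a group mean. On the arrays labelled NAA+BA, 5 of the 12 genes were called lower than on mock (HIS1-3, LEA4-5, LTI30, COR15A and AKINBETA1), 3 higher (ERD6, GBF6 and PRODH1), and 4 neither.

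Of 7 measured members of the ABA and dehydration list, 4 fell, 1 rose and 2 did not pass, with a median of -1.90. HIS1-3 stood at 11.18, 11.08 and 9.41 on the mock arrays and at 7.83, 7.52 and 5.28 on the NAA+BA arrays, a difference of -3.68 (SE 0.67, adjusted p = 0.00607 from limma). Replicate 3 was the lowest array of each group. The groups did not overlap, which was a condition of its place among the largest decreases.

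LEA4-5 encodes a late embryogenesis abundant protein that protects other proteins during drying. Its levels were 7.76, 8.02 and 6.45 under mock and 5.39, 4.79 and 4.70 under NAA+BA (-2.45, adjusted p = 0.00289 from limma). LEA18, one of the genes added by name, moved alike, at 7.33, 7.42 and 6.29 under mock and 4.69, 4.92 and 4.92 under NAA+BA (-2.17, adjusted p = 0.00151 from limma). The groups were apart for both genes, and mock replicate 3 was the lowest mock array for each.

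LTI30 is a dehydrin, and its mock arrays were far apart. It stood at 6.26, 8.18 and 5.49 under mock and 5.13, 4.69 and 4.38 under NAA+BA (-1.91, adjusted p = 0.0335 from limma). Its call was lost without 6 of the 9 arrays, one at a time, and without mock replicate 2 its difference was -1.15. COR15A, whose product stabilises chloroplast membranes in freezing, stood at 8.94, 10.04 and 9.18 under mock and 6.64, 8.44 and 7.39 under NAA+BA (-1.90, adjusted p = 0.016 from limma). COR27, a cold-regulated gene tied to the clock, stood at 5.55, 5.58 and 6.01 under mock and 3.74, 3.92 and 4.21 under NAA+BA (-1.76, SE 0.19, adjusted p = 0.000866 from limma).

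COR15A lost its call without mock replicate 2, NAA+BA replicate 1 or NAA+BA replicate 3 (adjusted p up to 0.0636 from limma). Its paralog did not follow it. COR15B stood at 7.49, 8.63 and 9.50 under mock and 7.50, 8.89 and 8.69 under NAA+BA, a difference of -0.18 with a 95% interval of -1.31 to 0.94. Its groups overlapped. COR47, another dehydrin, differed by -0.85 and passed the p threshold (adjusted p = 0.0254 from limma) but not the 2-fold one, at 9.14, 9.57 and 8.90 under mock and 8.73, 7.94 and 8.38 under NAA+BA. Of 9 genes with a LEA, COR or LTI30 symbol, a family put together after the values were seen, 5 fell and 4 did not pass.

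Of 4 E3 ligase genes of ABA and drought, picked after their values were seen, 2 fell and 2 did not pass, whereas the 3 measured ABA receptors rose. XERICO, a RING-type E3 ligase gene whose product raises ABA levels, stood at 10.87, 10.49 and 9.93 under mock and 8.91, 8.75 and 8.56 under NAA+BA (-1.69, adjusted p = 0.00177 from limma). PUB19, a U-box E3 ligase gene of the drought response, stood at 7.48, 7.73 and 6.76 under mock and 5.60, 5.74 and 5.50 under NAA+BA (-1.71, adjusted p = 0.00177 from limma). The related ligase genes PUB22 (0.63) and PUB23 (-0.05) did not pass. The ABA receptors PYL1 (1.04), PYL4 (1.83) and PYL6 (2.29) rose, PYL1 falling short of 2-fold without mock replicate 1 (0.93), but all 3 are known here only through Data S1 and the other 7 listed receptors were not measured by name.

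Of the 5 measured genes of the sugar starvation list 2 rose, PRODH1 and GBF6, 1 fell, AKINBETA1, and 2 did not pass. SIS, a salt-induced gene by its RefSeq name and outside the lists, stood at 10.73, 10.10 and 8.78 under mock and 7.78, 7.69 and 7.06 under NAA+BA (-2.37, adjusted p = 0.0054 from limma). AKINBETA1, a regulatory subunit of the energy-sensing SnRK1 kinase, stood at 10.43, 9.83 and 9.53 under mock and 8.49, 8.44 and 8.22 under NAA+BA (-1.54, adjusted p = 0.00193 from limma). The groups were apart for both genes.

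Of the 3 measured genes of the oxidative stress and detoxification list, 1 rose, MSRB9, and 0 fell. The calls that follow are of genes added by name. GSTU18, a glutathione transferase, stood at 9.87, 9.85 and 9.40 under mock and 8.52, 8.66 and 8.19 under NAA+BA (-1.25). TAPX, the thylakoid ascorbate peroxidase that removes hydrogen peroxide, stood at 10.60, 10.27 and 9.92 under mock and 9.12, 9.25 and 9.23 under NAA+BA (-1.06). Of 13 named glutathione transferases, 3 fell, 10 did not pass and the median was -0.09, so that most of the family was close to level. GSTU16 (-1.24) lost its call when any single array other than mock replicate 3 was left out, GSTL3 (-1.04) without mock replicate 1 or 2 or NAA+BA replicate 1 or 3, and TAPX without mock replicate 1, where its difference was -0.89.

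**Figure D2:**
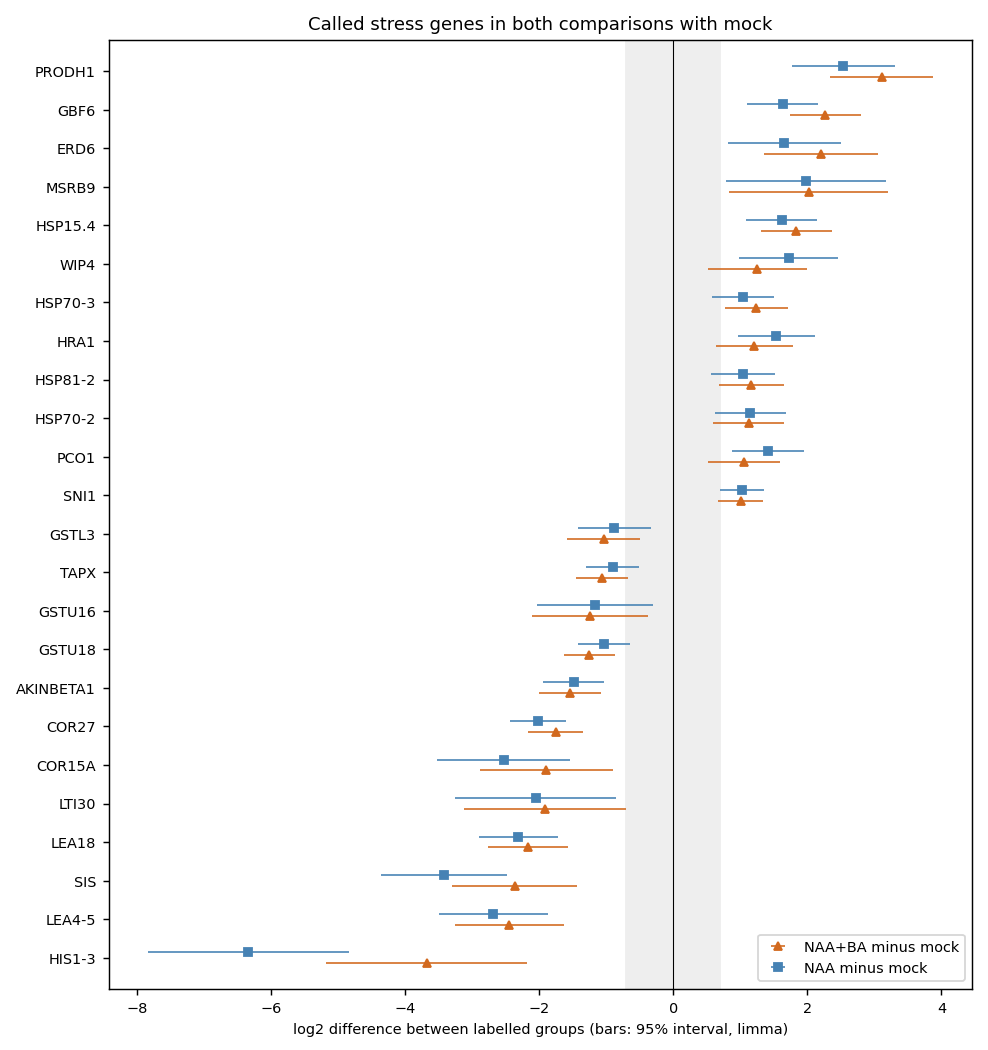
Log2 differences of the 24 called stress genes on the arrays labelled NAA+BA (triangles) and NAA (squares), each against the same 3 mock arrays, with 95% intervals from limma. The grey band marks differences under 0.7. No square lies inside the band, and GSTL3 (-0.88) and TAPX (-0.90) come nearest to it. The 12 higher genes are in Data S1, which was chosen on both comparisons, so their squares could not lie inside it.

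The stress genes that were higher include genes of protein folding, low oxygen and amino acid use. HSP15.4, a small heat shock protein, stood at 9.38, 9.33 and 9.03 under mock and 11.61, 10.85 and 10.78 under NAA+BA (1.83, adjusted p = 0.00177 from limma). The cytosolic chaperone genes HSP70-3 (1.24), HSP70-2 (1.12) and HSP81-2, an HSP90 (1.16), rose by less. Without mock replicate 1, HSP70-2 (0.94) and HSP81-2 (0.91) fell short of 2-fold. HSP70-3 stood at 9.42, 9.88 and 10.35 under mock and 11.24, 10.92 and 11.19 under NAA+BA. The heat-inducible small heat shock genes HSP17.6C (0.24), HSP22.0 (0.01) and HSP15.7 (-0.67) and the immunophilin gene ROF2 (0.44) did not pass, so that 4 of the 8 measured heat shock genes rose.

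Of the low oxygen genes, 3 of 4 rose. HRA1, which encodes a factor that attenuates the low oxygen response, stood at 4.91, 4.76 and 5.62 under mock and 6.43, 6.20 and 6.30 under NAA+BA (1.21, adjusted p = 0.0118 from limma). PCO1, a cysteine oxidase that marks oxygen-sensing factors for breakdown, rose by 1.05 and WIP4, a wound-induced polypeptide, by 1.26. PCO1 and WIP4 lost their calls without mock replicate 1 or 2 or NAA+BA replicate 1 or 3 (adjusted p up to 0.0602 and 0.0942 from limma). PDC2, a pyruvate decarboxylase of fermentation, was at 7.21, 7.25 and 8.01 under mock and 7.21, 7.66 and 7.51 under NAA+BA, a difference of -0.03 with a 95% interval of -0.52 to 0.47.

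The largest increase among stress genes was that of PRODH1, the proline dehydrogenase that breaks down the osmoprotectant proline, at 7.78, 7.64 and 9.16 under mock and 11.65, 11.19 and 11.07 under NAA+BA (3.11, adjusted p = 0.00103 from limma). GBF6, a bZIP factor also called bZIP11 that is controlled by sucrose, stood at 8.01, 8.35 and 9.07 under mock and 10.92, 10.79 and 10.51 under NAA+BA (2.27). ERD6, a sugar transporter gene induced early in dehydration, stood at 6.19, 6.60 and 8.04 under mock and 9.34, 8.99 and 9.13 under NAA+BA (2.21). On mock replicate 3 these 3 genes were above the other mock arrays and below every NAA+BA array. MSRB9 (2.02), which repairs oxidised methionine, and SNI1 (1.00), a repressor of pathogenesis-related genes, also passed. MSRB9 lost its call without mock replicate 1 or 2 or NAA+BA replicate 1 or 3 (adjusted p up to 0.0996 from limma), and SNI1 without mock replicate 1 or 2 or NAA+BA replicate 2 (difference down to 0.89).

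In the other stress lists no measured gene passed. The lists of cold (1 measured gene, ZAT10), endoplasmic reticulum folding (2), ethylene (2), jasmonate and wounding (1) and senescence (3) held 0 calls, and the phosphate starvation list had no named probe set. Only BZIP60 (-0.42), RTE1 (-0.39) and PDF1.2 (0.66) in those lists reached an unadjusted p under 0.05 with a difference under 0.7 between NAA and mock, and limma's adjusted p for them was 0.101, 0.11 and 0.109.

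No listed stress gene was changed on the NAA+BA arrays while staying within 0.7 of mock on the NAA arrays. Of all 1241 called probe sets 47 (3.79%) did so, and 0 of 17 is near that share. However, 12 of the 17 are in Data S1, whose entries the study chose for 2-fold changes in both comparisons. These 12 could not fall under 0.7 or 1, so only the 5 lower genes were free to do so. The 17 called stress genes also passed, each of them, when the NAA arrays were set against mock, where 1.28% of all probe sets were called higher and 3.51% lower. Those shares include probe sets not called for NAA+BA. Of the 1241 called for NAA+BA, 1194 differed by 0.7 or more on the NAA arrays, so the stress genes did not stand out. For the 12 in Data S1 the call with NAA was fixed by their selection, and the 2 comparisons share their mock arrays. The count was 0 at limits of 0.5, 0.7 and 1. For the genes added by name it was 0 at 0.5 and 0.7, and 2 at a limit of 1. The called stress genes closest to the limit of 0.7 were GSTL3 (-1.04 with NAA+BA and -0.88 with NAA), TAPX (-1.06 and -0.90) and, from the lists, SNI1 (1.00 and 1.03). None lay under 0.7.

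COR47 was called for NAA (-1.63) and fell short of 2-fold for NAA+BA (-0.85), and limma's adjusted p between NAA+BA and NAA was 0.9996. It stood at 7.66, 7.38 and 7.69 on the NAA arrays. Between NAA+BA and NAA directly, limma called 0 of the 40 stress genes, and 5 had an unadjusted p under 0.05. HIS1-3 differed most, by 2.66 with a 95% interval of 1.16 to 4.16 (adjusted p = 0.9996 from limma), and stood at 4.31, 4.72 and 3.61 on the NAA arrays. The others were COR47 (0.77), PDC2 (0.76), GBF6 (0.64) and BIK1 (0.44), each higher on the NAA+BA arrays.

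**Figure D3:**
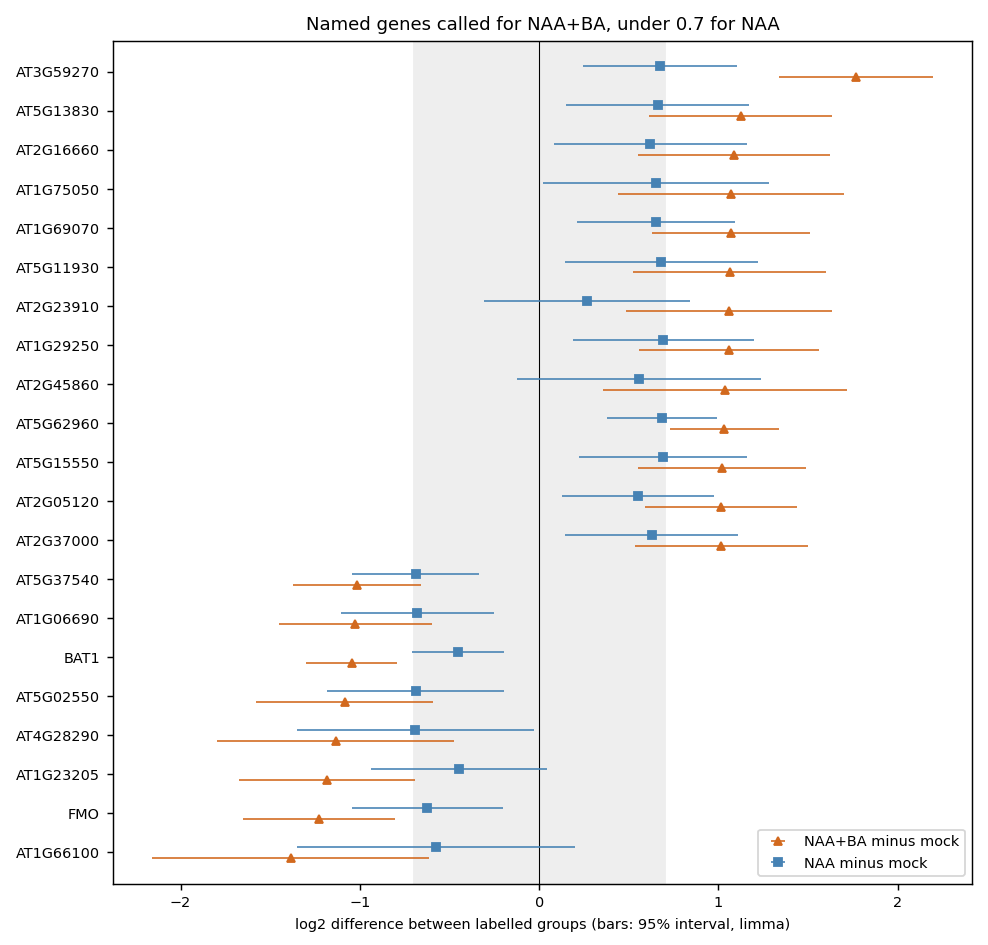
Log2 differences of the 21 named genes called between NAA+BA and mock (triangles) whose difference between NAA and mock (squares) was under 0.7, the grey band, with 95% intervals from limma. The squares lie inside the band by the choice of the genes, and 13 of the 21 triangles lie to the right and 8 to the left.

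Over all probe sets, 47 of the 1241 called ones stayed within 0.7 on the NAA arrays and 1194 did not. Of the 47, 29 were higher and 18 lower, and 21 have a gene name. The limit chose these genes, so their values are a description. BAT1, a brassinosteroid-related acyltransferase, stood at 8.78, 8.76 and 8.60 under mock, 8.22, 8.24 and 8.33 under NAA and 7.62, 7.57 and 7.80 under NAA+BA. The 3 groups did not overlap, and BAT1 was lowest with NAA+BA. FMO, a flavin monooxygenase gene, followed the same order, at 7.69, 7.07 and 7.42 under mock, 6.82, 6.75 and 6.74 under NAA and 5.81, 6.37 and 6.30 under NAA+BA.

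Among the higher genes, AT3G59270 had the largest difference, 1.77 against 0.67 for NAA. Its levels were 5.02, 5.04 and 4.58 under mock, 5.75, 5.75 and 5.16 under NAA and 6.60, 6.79 and 6.56 under NAA+BA. AT2G23910 came closest to mock on the NAA arrays (0.27) and was 1.06 higher on the NAA+BA arrays, but lost its call without any of 4 single arrays (adjusted p up to 0.0772 from limma). Just inside the limit were AT4G28290 (-0.69) and AT1G29250 (0.69). Limma called none of the 21 between NAA+BA and NAA, and the lowest adjusted p was 0.707, for AT3G59270.

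**Figure D4:**
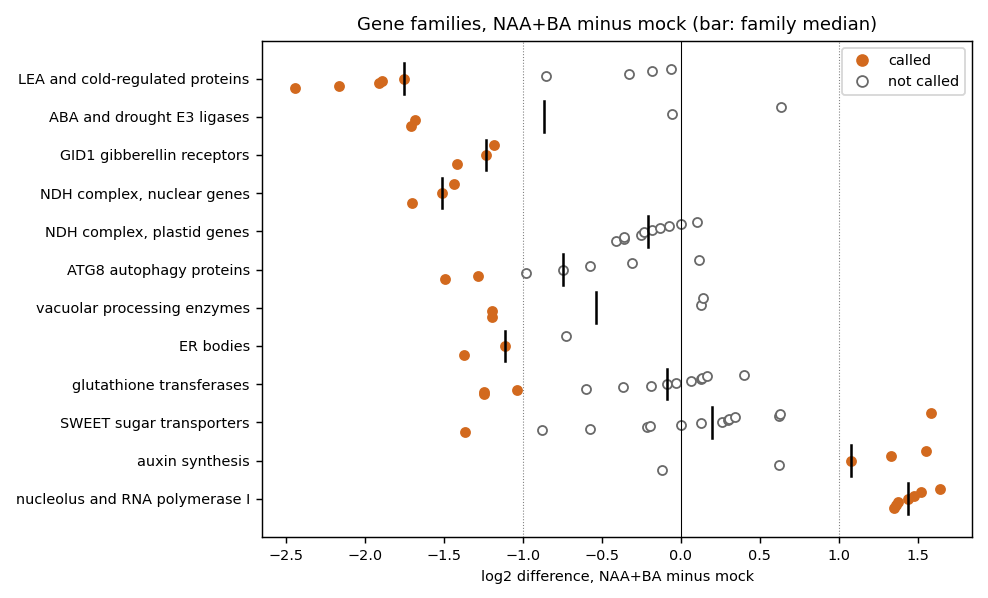
Log2 differences between NAA+BA and mock of the members of 12 gene families. Each point is 1 gene, filled where limma called it, the bar is the family median, and the dotted lines mark 2-fold. The 3 nuclear NDH genes lie left of the lower line and the 10 plastid ones between the lines. Whether plastid transcripts are reported as well as nuclear ones was not tested.

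Outside the stress lists, the families below were chosen after their values were seen, so that their counts are a description, beside 2.19% of all probe sets called higher and 3.25% lower. The 3 GID1 genes, which encode the receptors of gibberellin, a hormone of stem growth, all fell. GID1A stood at 9.13, 8.75 and 8.60 under mock and 7.39, 7.82 and 7.57 under NAA+BA (-1.24, adjusted p = 0.00382 from limma). GID1B stood at 9.31, 8.13 and 7.93 under mock and 7.00, 7.20 and 6.93 under NAA+BA (-1.42), and without mock replicate 1 its difference was -0.99. GID1C stood at 7.99, 7.61 and 7.49 under mock and 6.35, 6.58 and 6.60 under NAA+BA (-1.19, adjusted p = 0.00151 from limma).

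The NDH complex carries electrons around photosystem I, and its subunits come from both genomes. The 3 nuclear genes with an Ndh symbol fell, with differences of -1.70 for NdhL, -1.51 for NdhS and -1.44 for NdhN, which lost its call without mock replicate 1 and without NAA+BA replicate 3 (adjusted p up to 0.0534 from limma). NdhS stood at 11.19, 11.21 and 10.64 under mock and 9.52, 9.51 and 9.45 under NAA+BA, and NdhL at 10.18, 10.14 and 9.40 under mock and 7.99, 8.59 and 8.03 under NAA+BA. Of the 10 named plastid genes, 0 were called, and their differences lay between -0.41 (ndhK) and 0.10 (ndhF). The dimmest of them was ndhF, with means of 3.288 under mock and 3.392 under NAA+BA, so its small difference says little. Whether the RNA labelling reports plastid transcripts as well as nuclear ones was not tested. The contrast between the genomes is therefore a description of array values only. A pair of abundant photosynthesis genes of the nucleus were lower by less than 2-fold, RCA, the activase of Rubisco, at -0.81 (adjusted p = 0.00805 from limma) and LHCB4.1, an antenna protein, at -0.44 (adjusted p = 0.0279 from limma).

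Genes of self-digestion were lower in part. Of 7 named ATG8 genes, whose products coat the autophagosome, ATG8F (-1.49) and ATG8E (-1.29) fell, and ATG8H was just short of 2-fold (-0.98). ATG8F stood at 11.48, 11.15 and 10.32 under mock and 9.43, 9.84 and 9.21 under NAA+BA, whereas ATG8G was level (0.11). ATG8E lost its call without any of mock replicates 1 and 2 and the 3 NAA+BA arrays (adjusted p up to 0.115 from limma). Of the 4 vacuolar processing enzymes, proteases that mature vacuolar proteins, BETA-VPE (-1.20) and GAMMA-VPE (-1.19) fell. The vegetative GAMMA-VPE stood at 11.67, 11.62 and 10.64 under mock and 10.03, 10.53 and 9.79 under NAA+BA, and ALPHA-VPE (0.14) and DELTA-VPE (0.12) were not called. Both VPE calls were lost without mock replicate 1 or 2 or NAA+BA replicate 1 or 3 (adjusted p up to 0.103 and 0.0729 from limma).

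Endoplasmic reticulum bodies store beta-glucosidases that defend against feeding insects. PYK10, their main glucosidase in roots and seedlings, stood at 5.97, 5.36 and 6.22 under mock and 5.01, 3.83 and 4.59 under NAA+BA (-1.37, adjusted p = 0.0127 from limma). It is also the only member of the 6 root marker genes with a named probe set, and the part of other tissue in its difference was not tested. NAI2, needed to form these bodies, fell by 1.12 on the log2 scale, and the factor NAI1 differed by -0.72 without reaching 2-fold. The call of NAI2 was lost without any of 7 single arrays (adjusted p up to 0.102 from limma). Fewer cells of a type and less RNA per cell cannot be told apart in whole buds.

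Of 13 measured DNA replication genes 12 rose, but 11 of the 13 are named only through Data S1, all 12 are in it, and 0 of the 12 were still called without mock replicate 1. Most of them then fell short of 2-fold only, such as ORC6 (0.996), MCM2 (0.97) and ORC2 (0.89). With any 1 array left out their adjusted p stayed at or below 0.0148, 0.042 and 0.0115 from limma. For MCM3 and ORC1A it rose to 0.0895 and 0.0547. MCM7 (0.98), a subunit of the replicative helicase that is not in Data S1, was just short of 2-fold. Of 4 measured genes of mitosis 1 rose, ATK3, a kinesin that is in Data S1. The Aurora kinase genes AUR1 (0.73), AUR2 (0.61) and AUR3 (0.18), outside it, were not called. The 7 nucleolar and RNA polymerase I genes picked after their values were seen rose, by 1.35 (PPAN) to 1.64 (FIB2), and 6 of them are in Data S1. NRPA2, a subunit of RNA polymerase I and the only 1 outside it, stood at 8.07, 8.39 and 9.12 under mock and 10.06, 9.82 and 10.02 under NAA+BA (1.44, adjusted p = 0.00345 from limma). FIB2, a fibrillarin that modifies ribosomal RNA, stood at 9.71, 10.37 and 11.83 under mock and 12.15, 12.29 and 12.42 under NAA+BA. For FIB2, mock replicate 3 lay nearer to the NAA+BA arrays than to the other mock arrays, and the call was lost without any other array of the comparison (adjusted p up to 0.0791 from limma).

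Of 5 named auxin synthesis genes 3 rose. TAA1, which makes the precursor that the YUC enzymes turn into auxin, stood at 7.83, 7.67 and 8.20 under mock and 9.39, 9.42 and 9.56 under NAA+BA (1.56). YUC4 stood at 5.52, 5.43 and 5.51 under mock and 6.88, 6.62 and 6.96 under NAA+BA (1.33, adjusted p = 0.000809 from limma), and YUC2 at 6.42, 6.42 and 5.99 under mock and 7.43, 7.47 and 7.16 under NAA+BA (1.08). YUC6 (0.62) and YUC11 (-0.12) were not called. YUC2 fell short of 2-fold without mock replicate 3 (0.93). TAA1 is in Data S1 and the YUC genes are not.

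Sugar export genes went in both directions. SWEET10 stood at 7.54, 6.67 and 7.20 under mock and 8.19, 9.32 and 8.66 under NAA+BA (1.59), and SWEET11, which loads sucrose into the phloem of leaves, at 8.34, 7.67 and 7.64 under mock and 5.96, 7.07 and 6.51 under NAA+BA (-1.37). Neither gene overlapped between the groups. SWEET10 is in Data S1, so its direction was fixed by selection, and SWEET11 is not. SWEET10 lost its call without mock replicate 2, NAA+BA replicate 2 or NAA+BA replicate 3 (adjusted p up to 0.0609 from limma). The other 12 of the 14 named SWEET genes were not called. In the auxin response list 2 of 10 genes rose, 1 fell and 7 were not called. Both that rose, GH3.3 and IAA19, are in Data S1, and 0 of the 8 outside it rose. The conjugating enzyme genes GH3.5 (-2.13) and GH3.3 (1.35), which attach amino acids to auxin, were likewise opposed, GH3.5 at 11.70, 11.15 and 10.39 under mock and 9.38, 8.78 and 8.67 under NAA+BA.

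Only 3 of 15 meristem and bud genes could be followed by name. Of these, LAS, a gene of axillary meristem formation, was level at 6.18, 6.09 and 5.60 under mock and 6.12, 6.00 and 5.71 under NAA+BA, and CLV3, of the stem cell niche, stood at 4.51, 4.36 and 3.64 under mock and 4.72, 4.18 and 4.43 under NAA+BA. CUC3, a boundary gene that is in Data S1, rose by 1.69. No vascular marker had a named probe set, and AMS, the only named floral marker, stood at 6.44, 4.75 and 5.02 under mock and 3.63, 6.83 and 6.44 under NAA+BA.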

How the data were processed

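The authors deposited log2 values from an RMA run in R 2.15, for 22810 probe sets on 9 ATH1 arrays, 3 biological replicates in each of 3 groups. No version is stated for RMA. The number of arrays limits the precision. Here, group means were fitted to all 9 arrays with limma 3.58.1 in R 4.3.3 (lmFit, eBayes), with Benjamini-Hochberg adjustment across the whole array and a call at an adjusted p below 0.05 and at least 2-fold. The fit was tested on simulated data. Probe sets were named where the platform annotation gives 1 gene (13513), and 98 more through Data S1. Where a gene has several probe sets, lists used the brightest. The comparison, the lists and the members were chosen with earlier results of these data known, and families and stress words after their values were seen. Genes were named by a rule: the 10 largest changes each way without overlap, called stress genes and those nearest to 0.7, up to 4 members of a list, UBC21 and genes the study names. SIS, LEA18, COR27, TAPX, the GST genes, XERICO, the families and the genes under 0.7 fall outside it. The alternatives are given in the closing part.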

Additional observations from a re-analysis of the deposited data

How the results depend on the processing

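The 499 probe sets higher and 742 lower became 2422 and 2120 with no fold change threshold, 265 higher at an adjusted p under 0.01, and 778 higher with array weights. Leaving out each array in turn gave 227 to 979 higher and 514 to 1188 lower. The 17 called stress genes became 10 at an adjusted p under 0.01 and 10 to 18 with 1 array left out. Data S1 holds 12 of the 17, chosen for a 2-fold change in both comparisons with mock. The count of stress genes called with a difference under 0.7 on the NAA arrays was 0 in every setting run on the lists and 0 for the genes chosen by name, but 2 for the latter with the limit at 1, a setting added after seeing the data. The replicate block gave 531 higher, 793 lower and 17 stress genes. Arrays of the same number deviated from their group means with correlations of 0.24, 0.08 and 0.51 between mock and NAA+BA. Arrays numbered 1 and 2 gave 0.31 and 0.25 across the groups, and arrays numbered 3 gave -0.49 to -0.26 with other numbers. Deviations cancel within a group, so these values are tied to one another. The negative ones follow largely from the 0.51 and add no evidence of their own. The main test used no pairing, whereas the replicate block allows for a shift shared by arrays of the same number. The source of such a shift was not tested. Of the 24 called stress genes, 13 were called without any single array, and COR15A, LTI30, GSTL3, GSTU16, HSP70-2, HSP81-2, MSRB9, PCO1, SNI1, TAPX and WIP4 were not. None of the 116 called named genes changed sign with 1 array left out, whereas 36 of the 109 not called did, COR15B, AMS and PUB23 among them. Quantile normalization again, centring on the median, the filter on dim probe sets, control probe sets left out, only the 6 arrays compared, treat and an intensity trend kept all 4 counts within 1.5 times. Centring moved the median difference by -0.03. Genes with no named probe set, including 225 listed stress genes, were not analysed here.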

Other observations

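The floral marker AMS and some SWEET genes varied within the NAA+BA group. AMS, a tapetum factor, stood at 3.63, 6.83 and 6.44 on the NAA+BA arrays, and SWEET8, a sugar transporter of pollen development, at 5.71, 7.46 and 6.94. SWEET7 stood at 3.59, 6.24 and 5.37 and SWEET13 at 5.31, 6.58 and 5.92. These 4 genes, picked after their values were seen, were lowest of the group on NAA+BA replicate 1, and the cause was not tested. Other SWEET genes went both ways. SWEET11 was also lowest on that array (5.96, 7.07 and 6.51), whereas SWEET14 was highest on it (5.81, 5.69 and 5.13).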
